A study of Mus musculus with 2 samples.

Results

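Genes that make cholesterol and fatty acids were followed in the hypothalamus of mice lacking Crtc1 and of wild-type mice. The genes were 33 named enzymes, regulators and carriers of these pathways, found by the probe sets that the array's annotation pairs with one of their symbols alone. A probe set was found for 32 of them, with 76 probe sets in all, out of 18193 genes and 34945 probe sets paired with 1 gene on the array. The remaining one, Acat2, which encodes the cytosolic acetoacetyl-CoA thiolase, had no probe set of its own in the annotation used. RNA came from males 12 weeks old that had gone 18 h without food and had then eaten for 6 h. The knockout group was 1 array of RNA from 3 Crtc1 knockout mice mixed in equal amounts, and the control group was 1 array of RNA mixed in the same way from 3 wild-type mice. No source used here gives the mouse strain or the design of the Crtc1 allele. With 1 pool per genotype the spread between mice is unknown, no test between genotypes was possible, and every difference below has no replicate check.

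Cholesterol is built from acetyl-CoA through mevalonate and isoprenoid units to squalene, which is closed into a ring and trimmed step by step. Fatty acids are built from the same acetyl-CoA by carboxylation and chain extension, and are then lengthened and desaturated. Both pathways are driven by the SREBP transcription factors, which leave the endoplasmic reticulum with the escort protein SCAP when sterols are scarce and are held there by INSIG proteins when sterols are plentiful. The brain makes its own cholesterol, since lipoproteins of the blood do not cross the blood-brain barrier, and glia and myelinating cells are its main makers. Feeding after a fast raises SREBP-1c and the fatty acid enzymes in liver. Crtc1 encodes a protein that CREB recruits to switch on its target genes, and the series is titled for its part in energy balance and fertility.

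The arrays gave 1 linear signal intensity per probe set, in arbitrary units, and a probe set was taken as measured if the average of its 2 log2 signals reached the middle value of all probe sets, a signal of 52.3. By that limit 63 of the 76 probe sets and all 32 genes with a probe set were measured, against 11312 measured genes on the whole array. Of the 32 genes, 11 rested on 1 measured probe set. The Crtc1 signal, which checks the labels, was 85.1 in knockout against 631 in wild type by probe set 1434476_at, and no source used here says if these probes fall inside the deleted or changed stretch. Median signals were 54.4 and 52.2 in the knockout and wild-type arrays. Of 12 marker genes of the hypothalamus, 8 were measured, 3 higher and 5 lower in the knockout, with a median log2 difference (knockout minus wild type) of -0.09. They lay far apart, with 2 at least 1.2-fold higher, Avp at 0.56 and Oxt at 0.48, which encode vasopressin and oxytocin, and 2 at least 1.2-fold lower, the neuropeptide gene Cartpt at -0.82 and the melanocortin precursor Pomc at -0.35, whose 2 probe sets differ in sign and average 0.14. Among all measured genes, 11.9% were at least 1.2-fold higher and 9.97% at least 1.2-fold lower. In pooled tissue RNA, fewer cells of a type and less RNA per cell cannot be told apart.

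Sterol and fatty acid synthesis genes differed little between the pools. Each gene was given the value of its brightest measured probe set, as the log2 signal of the knockout pool minus that of the wild-type pool. Msmo1 lies on chromosome 8, which also carries Crtc1, and is described apart. Over the 31 other genes the median difference was 0.07, values ran from -0.21 to 0.42, and 19 were higher and 12 lower in the knockout. Over all measured genes the median was 0.00, and 50.9% were higher and 49.0% lower. The median of the 31 genes was 0.01 when the probe sets of a gene were averaged, with 16 genes higher and 15 lower, and also 0.01 when each array was centred on its median, which put all measured genes at -0.06. A difference of at least 1.2-fold was seen upward in 1 of the 31 genes and downward in 0, whereas it was seen upward in 11.9% of all measured genes and downward in 9.97%. At 1.5-fold the counts were 0 and 0, against 2.06% and 1.44% of all measured genes. With each array centred on its median, 1 of the 31 genes was at least 1.2-fold higher and 1 at least 1.2-fold lower, beside 8.73% and 14.6% of all measured genes. With the probe sets of a gene averaged, 3 were at least 1.2-fold higher and 0 lower, beside 11.4% and 9.45%. Among the 9189 measured genes whose mean signals fell within the range of the 31, 8.67% were at least 1.2-fold higher and 8.41% lower. This comparison holds the range of signals alike, not their distribution within it. The SD of the differences was 0.14 over the 31 genes and 0.22 over the genes in that range.

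The error used here, called the array error, is the SD of the differences given by several probe sets of one gene on the same 2 arrays. On the log2 scale this array error was 0.32 for probe sets dimmer than a mean of 7, then 0.26, 0.23 and 0.21 for the steps that begin at 7, 8 and 9, and 0.16 for those of 10 and brighter. It holds no spread between mice and no error that all probe sets of an array share. Of the 31 genes, 2 differed by more than their array error, Idi1 upward and Fads2 downward, while 25.2% of all measured genes did so.

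**Figure D1:**
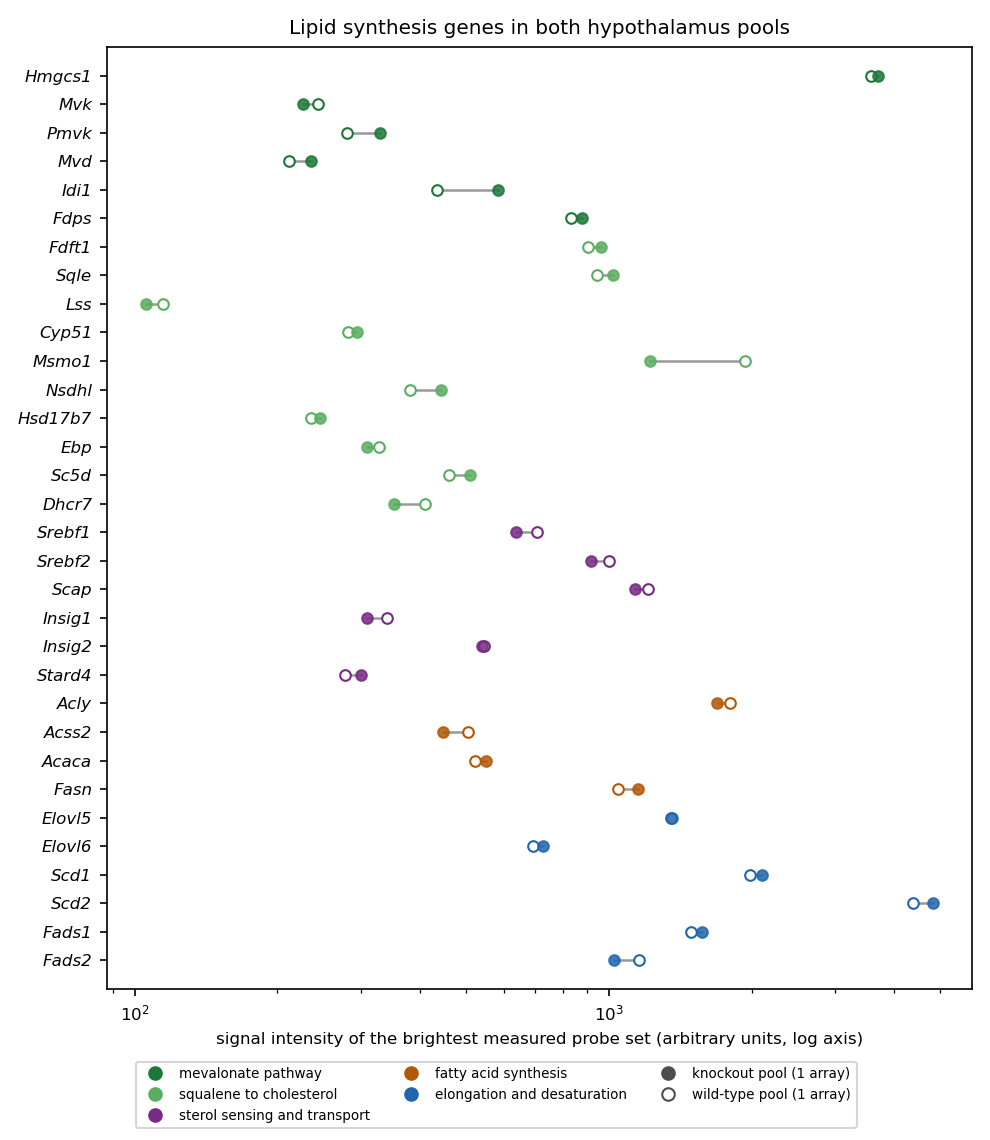
Signal intensity of the brightest measured probe set of each of the 32 lipid synthesis genes (log axis, arbitrary units), with filled points for the knockout pool and open points for the wild-type pool, 1 array each, coloured by role. The widest gaps are those of Msmo1, at 1223 against 1935, and Idi1, at 583 against 435.

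The promoter sequences of Idi1, Hmgcs1 and Msmo1 are shown because Idi1 and Msmo1 stand at the upper and lower end of the differences and Hmgcs1 alone, of the 26 genes with a promoter in the table used, holds a match to the sterol regulatory element. Each is the 250 bases before the annotated start in RefSeq's GRCm38.p6, written 5′ to 3′. Capitals mark matches on either strand to the NF-Y box CCAAT, to the sterol regulatory element TCACNCCAC and to a short form of the cAMP response element, TGACG.
Idi1, chr13:8885356-8885605, plus strand: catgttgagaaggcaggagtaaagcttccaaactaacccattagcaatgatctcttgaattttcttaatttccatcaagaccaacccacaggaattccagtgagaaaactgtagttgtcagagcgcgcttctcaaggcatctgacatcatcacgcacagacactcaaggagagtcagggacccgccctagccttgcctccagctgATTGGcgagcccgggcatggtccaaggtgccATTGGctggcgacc
Hmgcs1, chr13:119690101-119690350, plus strand: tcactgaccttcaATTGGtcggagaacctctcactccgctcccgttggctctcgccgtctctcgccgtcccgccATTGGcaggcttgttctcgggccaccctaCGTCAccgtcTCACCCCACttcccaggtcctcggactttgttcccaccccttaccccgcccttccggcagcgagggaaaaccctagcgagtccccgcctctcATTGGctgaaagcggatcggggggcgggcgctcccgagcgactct
Msmo1, chr8:64733579-64733828, minus strand: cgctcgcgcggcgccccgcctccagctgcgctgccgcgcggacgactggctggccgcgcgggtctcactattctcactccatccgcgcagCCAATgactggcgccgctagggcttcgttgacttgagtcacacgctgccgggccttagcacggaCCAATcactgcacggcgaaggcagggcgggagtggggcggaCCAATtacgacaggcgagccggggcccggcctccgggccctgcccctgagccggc
In the Hmgcs1 promoter the sterol regulatory element TCACCCCAC spans bases 137 to 129 before the start, and a short cAMP element on the opposite strand lies at 147 to 143. Idi1 held 2 NF-Y boxes and no match to the other motifs, and Msmo1 held 3 NF-Y boxes. NF-Y is a general transcription factor known to act beside SREBP at sterol genes, and CREB binds the cAMP response element.

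RefSeq promoter windows were found for 26 of the 33 genes, 34 windows in all. The NF-Y box was in 21 of the 34 windows (61.8%) and in 33.8% of all 32851 windows. Of the 26 genes, 20 had it, beside 37.5% of all 27025 genes with a window. Mvk, mevalonate kinase, was among the 20, with 5 matches. The sterol regulatory element as spelled was in 1 of 34 windows and in 1.05% of all windows. The short element TGACG was in 8 windows (23.5%), against 17.8% of all. The full element TGACGTCA, which contains the short one, was in 0 of 34 and in 1.55% of all. These counts describe letters in a short window and carry no information on binding.

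In the mevalonate pathway, which leads from acetoacetyl-CoA to the isoprenoid farnesyl diphosphate, 5 of 6 measured genes were higher in the knockout and 1 was lower, with a median of 0.11 that stayed above 0 under every alternative (0.05 to 0.15). The counts were less steady, at 4 higher and 2 lower with each array centred on its median. They were 3 higher and 2 lower without probe sets whose ID ends in _s_at, _x_at or _a_at. Idi1, which encodes the isomerase of isopentenyl diphosphate, read 583 in knockout and 435 in wild type by probe set 1451122_at, 1.34-fold higher (0.42, array error 0.23). Its second probe set, 1423804_a_at, read 109 and 93.6, a difference of 0.22 that was within its array error of 0.32. Both readings were thus higher in the knockout pool, and 94.9% of all measured genes had a lower difference than Idi1.

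Hmgcs1, which encodes the cytosolic HMG-CoA synthase, had 4 measured probe sets, and all 4 were higher in the knockout pool by unequal amounts. The brightest, 1433443_a_at, read 3693 in knockout and 3564 in wild type, a difference of 0.05. This value was -0.01 with each array centred on its median, which put the median of all measured genes at -0.06. The sign of this small difference thus depended on the scaling. Probe set 1433444_at read 1490 and 1093, a difference of 0.45, and 1433445_x_at read 1728 and 1491, a difference of 0.21. The fourth, 1433446_at, read 1089 and 961, a difference of 0.18. The mean of the 4 was 0.22, and only 1 of them passed 1.2-fold.

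Pmvk, phosphomevalonate kinase, read 329 in knockout and 281 in wild type, 1.17-fold higher (0.23, array error 0.23). Mvd, the decarboxylase that makes isopentenyl diphosphate, read 235 and 212 by its brighter probe set (0.15) and 125 and 129 by the other (-0.05). Mvd also lies on chromosome 8, 521 protein-coding genes from Crtc1 in the order of GRCm38.p6. Fdps, farnesyl diphosphate synthase, read 877 and 833, a difference of 0.07. Mvk was the lower gene of the group, at 227 and 244 by one probe set (-0.11) and 163 and 171 by the other (-0.07). Each of these differences was within the array error.

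Of the steps from farnesyl diphosphate through squalene to cholesterol, 9 genes were measured beside Msmo1, 6 higher and 3 lower in the knockout pool, with a median of 0.07 (0.01 to 0.11 over the alternatives). None passed 1.2-fold by its brightest probe set. Fdft1, squalene synthase, read 963 in knockout and 906 in wild type (0.09), and its other measured probe set gave 548 and 487 (0.17). Sqle, squalene epoxidase, an oxygen-using and rate-limiting step, read 1021 and 945 (0.11). Lss, lanosterol synthase, which closes the ring, read 106 and 115 (-0.12) by one probe set and 86.5 and 85.6 (0.02) by the other. The entry into the sterol branch thus differed by at most 0.17 in either direction.

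Among the enzymes that trim lanosterol, Cyp51, the lanosterol demethylase, and Hsd17b7, a ketoreductase, had dim probe sets with much larger differences than their bright ones. Cyp51 read 295 in knockout and 281 in wild type by its brightest probe set (0.07) but 81.3 and 55.7 by 1422533_at (0.55). Hsd17b7 read 246 and 236 by its brightest (0.06), 243 and 199 by 1457248_x_at (0.28) and 95.3 and 56.7 by 1417871_at (0.75). All measured probe sets of both genes were higher in the knockout pool, and their means over probe sets were 0.31 and 0.37. The dim readings, 1422533_at and 1417871_at, stood not far above the limit for a measured probe set, where the array error was 0.32, which both exceeded. Probe set 1457248_x_at was not dim, and its 0.28 stood just past its array error of 0.26.

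Nsdhl, a sterol dehydrogenase that acts with Msmo1 in removing the methyl groups at carbon C-4, read 442 in knockout and 381 in wild type, 1.16-fold higher (0.21, array error 0.23). Dhcr7, the reductase of the last step, was 1.16-fold lower, at 353 and 410 (-0.21, array error 0.23). Ebp, the sterol isomerase, read 310 and 328 (-0.09). Sc5d, the sterol desaturase before Dhcr7, read 509 and 460 by its brightest probe set (0.15) and had others at 0.04 and -0.24. These 4 late enzymes therefore had no common direction.

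Msmo1, the C-4 methylsterol oxidase, was the one gene of the 32 whose brightest probe set differed by over 1.5-fold. Probe set 1423078_a_at read 1223 in knockout and 1935 in wild type, 1.58-fold lower (-0.66, array error 0.16), and the value was -0.65 to -0.72 under the alternatives that measured it. The signals of its other probe set, 1459627_at, lay at the floor, so the difference rests on 1 probe set. Of all measured genes, 0.840% had a lower difference and 1.44% were at least 1.5-fold lower. Msmo1 lies 65 protein-coding genes from Crtc1. Of the 602 measured genes on chromosome 8, 3.65% were at least 1.5-fold lower and 2.99% at least 1.5-fold higher. Of its nearest protein-coding genes, 10 to each side, 9 were measured. Their median was 0.24, with 1 at least 1.2-fold lower and 4 at least 1.2-fold higher, beside 15.6% and 12.1% of the measured genes of the chromosome. At least 1.5-fold higher were 2 of the 9, and 0 were at least 1.5-fold lower. The neighbouring genes thus lay mostly on the other side from Msmo1. A difference that follows from the loss of Crtc1 and one that travels with the chromosome around the altered gene cannot be told apart in this design.

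**Figure D2:**
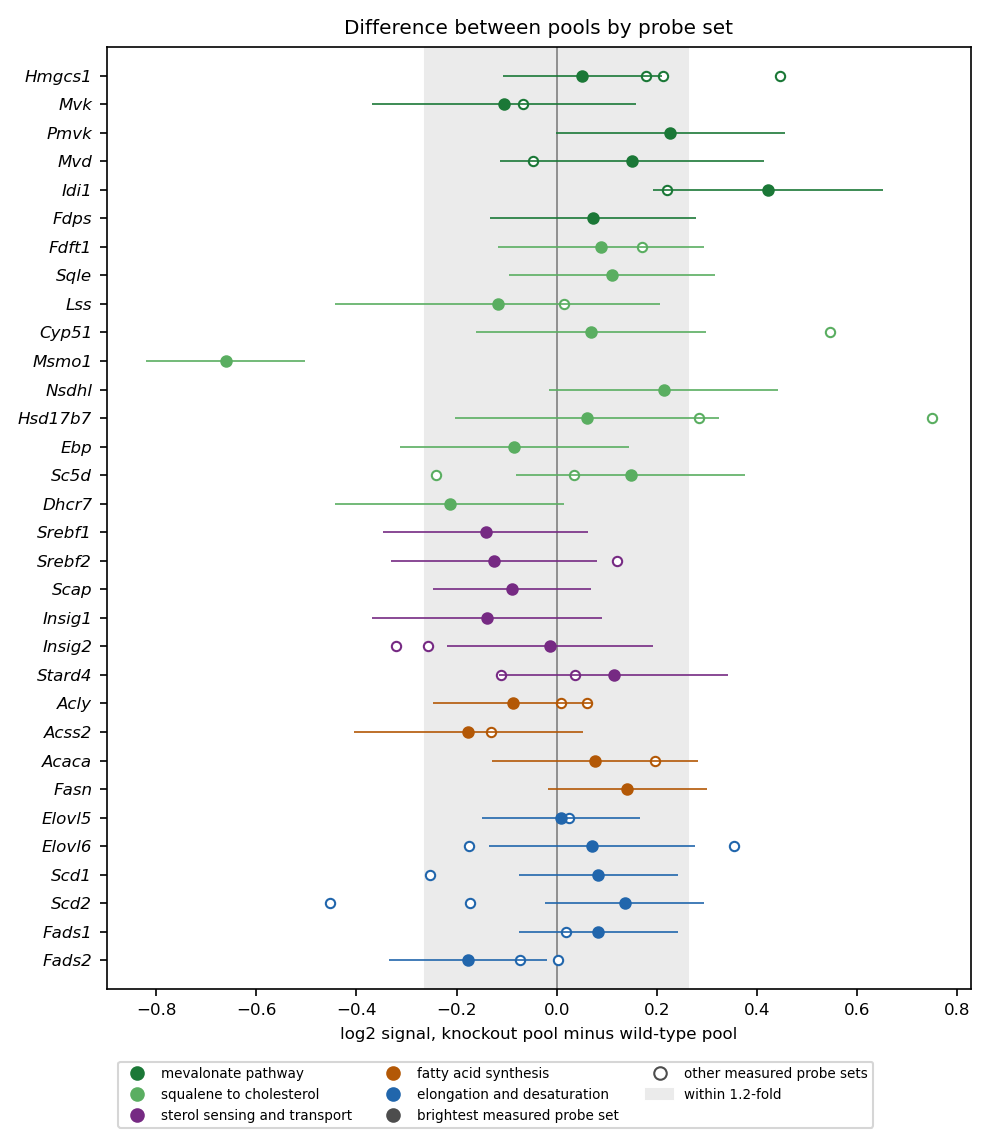
Log2 difference (knockout pool minus wild-type pool) of every measured probe set of the 32 genes, with filled points for the brightest probe set of a gene, bars for its array error (SD between probe sets of one gene at that signal) and open points for the others. The grey band is 1.2-fold either way. By their brightest probe sets Idi1 at 0.42 and Msmo1 at -0.66 lie outside it, and open points of Hmgcs1, Cyp51, Hsd17b7, Elovl6, Scd2 and Insig2 also do.

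Read by probe set, the 15 sterol enzyme genes without Msmo1 had 28 measured probe sets, 21 higher and 7 lower in the knockout, with a median of 0.10 against 0.00 for all 19814 measured probe sets with 1 gene. Of the 28, 5 were at least 1.2-fold higher (17.9%) and 0 at least 1.2-fold lower, where 13.9% of all such probe sets were higher and 11.8% lower by that much. The 5 belonged to Hmgcs1, Idi1, Cyp51 and Hsd17b7, the last with 2. The share past 1.2-fold upward was close to that of all probe sets. Probe sets of one gene read the same 2 pools and are no replicates.

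Genes that sense and move sterols were slightly lower in 5 of 6 cases, with a median of -0.11 that stayed below 0 under every alternative (-0.17 to -0.09). The count was 4 lower and 2 higher under one other scaling. None passed 1.2-fold by its brightest probe set. Srebf1, which encodes SREBP-1 and is itself raised by insulin and by oxysterols through LXR, read 638 in knockout and 705 in wild type (-0.14). Srebf2, which encodes the SREBP of the cholesterol genes, read 917 and 1000.3 by its brighter probe set (-0.13) and 527 and 485 by the other (0.12), which are opposite in sign. Scap, the escort protein gene, read 1138 and 1211 (-0.09).

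Insig1, an SREBP target that holds SCAP back, read 309 in knockout and 341 in wild type (-0.14). Insig2, which is less dependent on SREBP, had 3 measured probe sets, all lower in the knockout pool. The brightest read 540 and 545 (-0.01), and this value was 0.01 under another scaling, while the others read 333 and 398 (-0.26) and 106 and 133 (-0.32). Its mean over probe sets was -0.20. Stard4, a carrier of cholesterol between membranes, read 301 and 278 by its brightest probe set (0.11) and had others at 0.04 and -0.11. Every difference in this group by brightest probe set was within the array error.

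The 4 enzymes that make palmitate from citrate or acetate were split evenly, 2 higher and 2 lower, with a median of -0.01, which was from -0.07 to 0.07 under the alternatives and so had no settled sign. Fasn, fatty acid synthase, read 1153 in knockout and 1046 in wild type (0.14, array error 0.16). Acaca, the carboxylase that makes malonyl-CoA, read 551 and 523 by its brighter probe set (0.08) and 115 and 100.3 by the other (0.20). Acly, ATP citrate lyase, had 3 measured probe sets, of which the brightest read 1692 and 1798 (-0.09) and the others gave 0.06 and 0.01. Acss2, which makes acetyl-CoA from acetate, was lower by both measured probe sets, at 447 and 505 (-0.18) and 248 and 272 (-0.13). All 4 genes were within their array error by the brightest probe set.

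Of 6 genes of fatty acid elongation and desaturation, 5 were higher and 1 lower in the knockout pool by the brightest probe set, with a median of 0.08, which was -0.03 with 3 higher and 3 lower when probe sets were averaged. Scd2, the main stearoyl-CoA desaturase of brain, had 3 bright probe sets that differed from each other. They read 4819 in knockout and 4385 in wild type (0.14), 3727 and 4201 (-0.17), and 1424 and 1948 (-0.45). The spread between these readings of the same gene, all well above the limit for a measured probe set, exceeded the array error of 0.16. Scd1, its paralog, read 2099 and 1982 (0.08) by one probe set and 254 and 302 (-0.25) by the other. The Scd genes are close copies of each other, and how far a probe set of one reads another was not tested.

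Fads2, the delta-6 desaturase that starts the synthesis of long polyunsaturated fatty acids, read 1024 in knockout and 1158 in wild type, 1.13-fold lower (-0.18, array error 0.16). Its other measured probe sets read 816 and 858 (-0.07) and 55.4 and 55.3 (0.00), and the mean of the 3 was -0.08. Fads1, the delta-5 desaturase, read 1576 and 1488 (0.08) by its brighter probe set. Elovl5, which lengthens polyunsaturated chains, read 1358 and 1350 (0.01) by one probe set and 1192 and 1173 (0.02) by the other, and centring each array on its median put the first at -0.05. Elovl6, which lengthens palmitate, read 726 and 692 by its brightest probe set (0.07) and had others at 0.35 and -0.18.

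Where several probe sets of one gene were measured, they often disagreed in sign. Of the 32 genes, 21 had at least 2 measured probe sets, and in 11 of them (52.4%) all had one sign, 8 higher and 3 lower in the knockout pool. Over all 5199 genes with at least 2 measured probe sets the share of one sign was 42.5%. The 8 higher were Hmgcs1, Idi1, Fdft1, Cyp51, Hsd17b7, Acaca, Elovl5 and Fads1, and the 3 lower were Mvk, Insig2 and Acss2. The number of probe sets per gene, on which such shares depend, was not matched.

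Other genes of the sterol pathways, taken from a list that holds none of the 33, did not share one direction. Of 21 such genes of isoprenoid and sterol synthesis and of SREBP control, 15 were measured, 7 higher and 8 lower in the knockout pool, with a median of -0.03. Past 1.2-fold, 2 of the 15 were higher and 2 lower (13.3% each), near the 11.9% and 9.97% of all measured genes. At least 1.2-fold higher were Lbr, which encodes a sterol reductase of the nuclear envelope, at 249 in knockout and 198 in wild type (0.33), and Mbtps2, a protease that releases SREBP, at 259 and 216 (0.26). At least 1.2-fold lower were Syvn1, a ubiquitin ligase of the endoplasmic reticulum, at 510 and 641 (-0.33), and Ggps1. Ggps1, which draws farnesyl diphosphate into geranylgeranyl diphosphate, read 329 and 448 by its brightest probe set (-0.45), but it had 4 measured probe sets of both signs and a mean of -0.03. Each of the other 3 kept its sign under every alternative, with a lowest size of 0.27, 0.21 and 0.23 for Lbr, Mbtps2 and Syvn1. Lbr and Mbtps2 had 1 measured probe set each, so averaging probe sets could not change them. Mbtps2, with an array error of 0.26, fell below 1.2-fold under the 3 other scalings and the pseudocount. Syvn1 fell below it when its probe sets were averaged.

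Of 23 genes of sterol uptake, transport and turnover, 15 were measured, 11 higher and 4 lower in the knockout pool, with a median of 0.08. Past 1.2-fold were 0 of the 15, beside 11.9% of all measured genes upward and 9.97% downward. The largest differences were those of Stard5, a sterol carrier, at 77.9 in knockout and 65.6 in wild type (0.25, with a second probe set at -0.32), Lcat, which esterifies cholesterol on lipoproteins, at 330 and 281 (0.23), and Cyp7b1, an oxysterol hydroxylase, at 231 and 197 (0.23). Stard3, a sterol carrier of late endosomes, was lower, at 382 and 443 (-0.21). The median was 0.02 to 0.13 under the alternatives. Lcat is also on chromosome 8, 361 protein-coding genes from Crtc1.

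Other genes of fatty acid metabolism were more often lower than higher in the knockout pool. Of 35 genes on that list 30 were measured, 7 higher and 23 lower, with a median of -0.10 that was -0.16 to -0.09 under the alternatives. At least 1.2-fold lower were 6 of the 30, and 1 was at least 1.2-fold higher, beside the 9.97% and 11.9% of all measured genes. Mlycd, malonyl-CoA decarboxylase, which breaks down the product of Acaca, read 157 in knockout and 239 in wild type, or 1.52-fold lower by its 1 probe set (-0.61, array error 0.26). Mlycd is on chromosome 8 as well, 473 protein-coding genes from Crtc1. Scd3, a desaturase paralog, read 44.1 and 64.4 (-0.55), a dim signal, and Fads3, a desaturase of the Fads cluster, read 238 and 334 (-0.49) with 3 probe sets of both signs and a mean of -0.12. Elovl2, an elongase of very long polyunsaturated chains, read 69.4 and 51.8 (0.42, 1 probe set). The count of genes at least 1.2-fold lower was 4 to 8 under the alternatives.

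**Figure D3:**
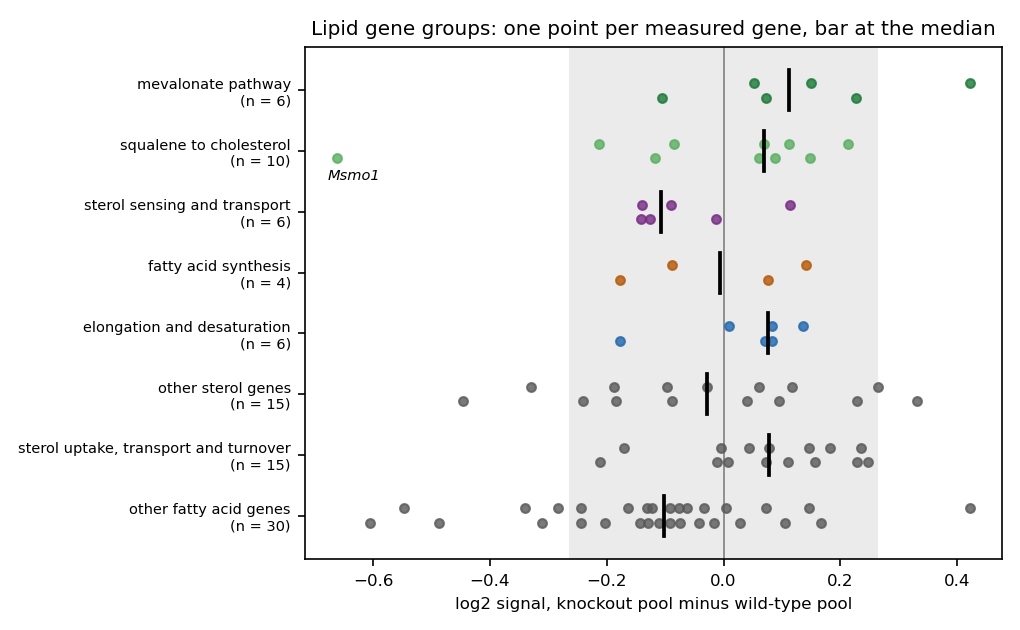
Log2 difference (knockout pool minus wild-type pool) of each measured gene, by its brightest probe set, in the 5 roles of the lipid synthesis genes (coloured) and in 3 lists of other lipid genes (grey), with a black bar at the median of each group, Msmo1 left out of its median, and a grey band for 1.2-fold either way. Sterol sensing and transport genes have a median of -0.11, mevalonate pathway genes 0.11 and other fatty acid genes -0.10, and most points lie inside the band.

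Markers of the cells that make brain lipids were measured in the same pools. Astrocyte markers, 8 of 8 measured, had a median of 0.05 with 6 higher, and a summed signal of 19814 in knockout and 19241 in wild type. Their largest differences were in Aqp4, a water channel gene, at 0.34, Slc1a3 at 0.12, Aldh1l1 at 0.10 and Gfap at 0.07. Slc1a3 had 4 measured probe sets of both signs, from -0.17 to 0.24, with a mean of 0.03. Oligodendrocyte markers, 9 of 10 measured, had a median of 0.02 with 5 higher and 4 lower, and summed signals of 20475 and 20659. Mog, a myelin protein gene, differed by 0.21, Mag by -0.18, and Opalin and Ugt8a by 0.13 each. Medians were 0.05 for 6 oligodendrocyte precursor markers, -0.02 for 7 neuron markers, 0.19 for 8 microglia markers, 0.08 for 5 endothelial markers, -0.40 for 6 choroid plexus markers and -0.04 for 5 tanycyte and ependymal markers. Of the choroid plexus markers 6 of 6 were lower, 4 by at least 1.2-fold, beside 9.97% of all measured genes. Of the microglia markers 5 were higher and 3 lower, with 3 at least 1.2-fold higher, beside 11.9% of all measured genes. The medians of the astrocyte, oligodendrocyte, precursor, neuron and tanycyte lists did not keep one sign under every alternative. The part of any of these cells in the lipid gene values was not tested.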

How the data were processed

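Hypothalamic RNA was measured on 2 Affymetrix arrays, 1 per genotype, each of RNA pooled from 3 mice. The authors deposited 1 linear signal intensity per probe set, and no source used here says how the probes were summarised. Judged by the values, the mean without the lowest and highest 2% was 200.0 on both arrays, so 1 scaling factor per array had been applied. Of 45101 probe sets 64 controls were left out, 34945 were paired with 1 gene in GEO's platform annotation, 932 with several and 9160 with none. Symbols and gene order came from RefSeq's GRCm38.p6 table, in which 34741 matched. Signals were floored at each array's 30th percentile (20.5 in the knockout, 20.2 in the wild type), put on the log2 scale and kept at or above the median mean signal. Calculations used Python 3.11.15 with pandas 2.3.3 and statsmodels 0.14.6, and the steps were checked on simulated data. The simulated noise was below the array error, and the differences put in were large and in bright genes only. The check therefore does not cover small differences or dim probe sets. The number of arrays limits the precision. All 33 genes are accounted for. Other genes named are Crtc1, other sterol genes at least 1.2-fold apart, and up to 4 per further list with the largest difference, except that for lists other than lipid genes, astrocytes, oligodendrocytes and the hypothalamus only summaries are given. The genes and lists were chosen with earlier results of these data known. The alternatives were 3 other scalings, 2 other floors, a pseudocount of 16, 2 other filters and 2 other ways to combine probe sets.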

Additional observations from a re-analysis of the deposited data

How the results depend on the processing

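The median difference of the 31 genes other than Msmo1 stayed above 0 under each of the 10 alternatives of processing, and moved to 0.0090 with median centring of each array and to 0.013 with the mean of probe sets. Median centring shifted all measured genes alike. The median of the 31 lay 0.06 above that of all measured genes both as reported and with median centring, and 0.0069 above it with the mean of probe sets. The number of the 31 genes at least 1.2-fold apart, 1 as reported, was 2 with median centring, 3 with the mean of probe sets and 2 without probe sets whose ID ends in _s_at, _x_at or _a_at. It was also 2 with Msmo1 included. Leaving out Mvd, which is on the Crtc1 chromosome, left the count at 1 and gave a median of 0.06. For single genes, 770 of 782 alternative values lay within the array error of the reported one. Many of these could hardly differ, because another floor or filter left most values unchanged, such as Idi1 at 0.42. The count is therefore no measure of how firm the values are. Of genes past 1.2-fold, 1 reversed, Pomc, the melanocortin precursor, from -0.35 to 0.14 with the mean of probe sets, where its 2 probe sets differ in sign. Of the 32 lipid synthesis genes, 29 kept one sign in every scaling and 24 in every alternative. Where a probe set is dim, a signal near the floor limits what can be read from its ratio. No paired analysis was possible because each genotype has 1 pooled array and the labels give no replicate numbers.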

Other observations

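The 13 probe sets of lipid synthesis genes that were not measured read from 0.6 to 59.4, and 6 of them were at the floor in both pools. Among the others, 1442885_at of Scap, the SREBP escort gene, read 41.9 in knockout and 25.5 in wild type, and 1446542_at of Acss2 read 59.4 and 41.8, both opposite in sign to the measured probe sets of those genes. Probe set 1446315_at of Acly read 32.9 in the wild type, and its knockout signal was at the floor.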
